A study of Mus musculus with 8 samples.

Results

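A coding gene was counted as closed when none of the 8 ATAC-seq peak lists held a peak within 1 kb of any of its annotated transcription start sites (TSS), and 6693 of the 21755 protein-coding genes on chromosomes 1 to 19 and X were chosen by this rule. Closed therefore means only that no peak was called at the promoter. The libraries came from SN4741, an immortalised mouse line made from the substantia nigra of embryos, in which the tyrosine hydroxylase promoter drives a T antigen with lower activity at 39 °C, with the genotype label WT. There were 4 libraries from undifferentiated cells at 37 °C in 10% serum and 4 from cells held at 39 °C in 0.5% serum for 48 h, so temperature and serum cannot be told apart. Each library was made from 50000 cells. All are samples of 1 unstable, mostly triploid line, no source used here says that they were separate cultures, and p-values then measure only the spread between these libraries.

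ATAC-seq marks DNA that a transposase can reach, and the start sites of genes in use are usually the most accessible part of the genome. Genes used in only 1 tissue are often packed into chromatin that the enzyme does not enter in other tissues, and many stand in tandem arrays of related copies, as the receptors for odours and pheromones do. Promoters of genes used by every cell are mostly rich in CpG dinucleotides, while those of tissue-restricted genes are often poor in them.

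The first set of sequences shows what closed promoters look like at the level of bases, with 1 closed gene from each of 7 lists. Each is the 200 bases before the most upstream annotated TSS, on the strand of the gene, 5′ to 3′, in mm10, with every CpG in capitals. Alb encodes serum albumin, Ins1 an insulin, Myh2 a fast muscle myosin, Hbb-bh1 an embryonic globin, Cd3e a T cell receptor subunit, Prm1 a sperm protamine and Olfr1 an odorant receptor.
Alb (chr5:90460697-90460896, plus strand): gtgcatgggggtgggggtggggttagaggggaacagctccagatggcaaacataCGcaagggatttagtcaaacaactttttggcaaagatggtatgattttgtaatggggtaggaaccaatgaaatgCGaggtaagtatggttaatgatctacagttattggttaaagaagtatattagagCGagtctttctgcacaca
Ins1 (chr19:52264097-52264296, plus strand): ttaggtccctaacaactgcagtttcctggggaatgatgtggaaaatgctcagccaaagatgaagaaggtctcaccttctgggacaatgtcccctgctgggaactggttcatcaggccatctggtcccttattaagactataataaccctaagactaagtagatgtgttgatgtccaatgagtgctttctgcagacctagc
Myh2 (chr11:67170827-67171026, plus strand): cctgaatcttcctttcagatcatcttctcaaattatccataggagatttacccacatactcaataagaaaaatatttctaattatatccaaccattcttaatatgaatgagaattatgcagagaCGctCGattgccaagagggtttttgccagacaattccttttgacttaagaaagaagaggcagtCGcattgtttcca
Hbb-bh1 (chr7:103843165-103843364, minus strand): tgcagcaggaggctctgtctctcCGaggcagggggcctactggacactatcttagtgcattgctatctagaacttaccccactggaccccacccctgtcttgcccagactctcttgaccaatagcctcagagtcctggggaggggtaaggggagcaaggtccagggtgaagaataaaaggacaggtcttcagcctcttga
Cd3e (chr9:45009628-45009827, minus strand): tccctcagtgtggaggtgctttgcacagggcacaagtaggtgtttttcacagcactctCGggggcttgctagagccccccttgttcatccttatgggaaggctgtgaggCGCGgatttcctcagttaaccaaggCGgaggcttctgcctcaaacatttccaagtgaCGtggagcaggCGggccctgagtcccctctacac
Prm1 (chr16:10805840-10806039, minus strand): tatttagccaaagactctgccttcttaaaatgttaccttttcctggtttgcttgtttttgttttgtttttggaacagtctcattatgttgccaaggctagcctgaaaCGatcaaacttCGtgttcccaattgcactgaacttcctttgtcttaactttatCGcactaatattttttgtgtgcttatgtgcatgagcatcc
Olfr1 (chr11:73399615-73399814, minus strand): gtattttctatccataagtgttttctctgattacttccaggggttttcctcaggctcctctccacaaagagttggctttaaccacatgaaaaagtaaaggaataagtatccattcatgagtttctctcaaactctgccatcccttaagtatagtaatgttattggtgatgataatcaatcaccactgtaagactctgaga
These closed promoters held 0 CpG in Ins1 and Olfr1, 1 in Hbb-bh1, 3 each in Alb, Myh2 and Prm1 and 6 in Cd3e, so they differed among themselves. Prm1 stood near a peak, at 1.68 kb, whereas the nearest peak to Ins1 was 202 kb away.

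The second set shows the other side of the finding, open chromatin inside closed genes. They are the 3 distal regions that ranked highest by −log10 q, on average, among those called in all 8 libraries, distal meaning more than 1 kb from every annotated TSS of any gene, and each lies in an intron. The 201 bases centred on the summit are given on the plus strand, with capitals for matches to TGANTCA (AP-1), GGAATG (TEAD core) and AACCACA (RUNX), searched on both strands.
Ddc intron (chr11:11820698-11820898): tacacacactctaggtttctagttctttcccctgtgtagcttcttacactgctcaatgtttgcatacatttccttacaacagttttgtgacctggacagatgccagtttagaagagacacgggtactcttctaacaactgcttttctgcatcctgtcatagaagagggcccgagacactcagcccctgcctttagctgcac
Mall intron (chr2:127722460-127722660): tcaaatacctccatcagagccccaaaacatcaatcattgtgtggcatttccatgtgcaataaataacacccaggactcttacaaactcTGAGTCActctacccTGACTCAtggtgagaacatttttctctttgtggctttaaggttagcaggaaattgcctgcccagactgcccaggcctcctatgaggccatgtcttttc
Zmat4 intron (chr8:23740724-23740924): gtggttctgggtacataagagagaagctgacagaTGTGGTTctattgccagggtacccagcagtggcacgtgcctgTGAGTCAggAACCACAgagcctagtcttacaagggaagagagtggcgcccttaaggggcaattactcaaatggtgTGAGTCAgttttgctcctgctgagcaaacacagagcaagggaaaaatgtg
The Ddc region held no match to the 3 motifs, the Mall region held 2 AP-1 matches, and the Zmat4 region held 2 AP-1 and 2 RUNX matches. Ddc encodes the decarboxylase that makes dopamine from L-DOPA, Mall a membrane protein of the MAL family, and Zmat4 a zinc finger protein. The fold enrichment of the Ddc region was 110, 104, 88.8 and 103 at 37 °C and 120, 114, 123 and 73.3 at 39 °C in replicates 1 to 4. Replicate 4 at 39 °C had the lowest value and the groups overlapped. In the Mall region it was 93.1, 97.5, 92.7 and 90.7 at 37 °C and 111, 115, 127 and 72.0 at 39 °C, with the same library lowest. The Ddc region began 1282 bp from a TSS of that gene, so Ddc would not be a closed gene at a distance of 5 kb. Its summit lay 77346 bp from the most upstream TSS of Ddc.

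The libraries differed in depth and in the length of their lists. The caller kept 158 to 169 M fragments in replicates 4 and 1 at 37 °C and 49.8 to 71.2 M in the other 6 libraries, and the lists held 54845 to 92013 peaks. Of all coding genes, 31.7% to 34.3% lacked a promoter peak in a 37 °C library and 36.4% to 39.0% in a 39 °C library. Of 10 neural precursor markers looked at afterwards, 4 had a promoter peak in all 8 libraries (Nes, Sox2, Pax6 and Msi1) and 4 were closed, among them Sox3, Fabp7 and Prom1. Sox1 and Hes5 had one in 7 and 2 libraries, so the label of neural precursor cells was met in part.

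Most promoters were called alike in all 8 lists. A promoter peak was called in all 8 libraries for 13144 genes and in none for 6693, or 30.8%, leaving 1918 genes with a peak in 1 to 7 libraries. Of these, 264 missed the closed class through a peak in a single library, which for 134 of them was replicate 4 at 37 °C, the library with the longest list. Members just beyond the limit of 1 kb were Trpv1 at 1002 bp, Ttll8 at 1007, Arhgap40 at 1013, Tex44 at 1014 and Cdh10 at 1015 bp from a peak. Genes just within it were Myo5c at 997 bp, H2al3 at 993, Folr2 at 992, Tex21 at 987 and C1qc at 986 bp.

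Closed genes lay at very different distances from open chromatin. The median distance from a TSS to the nearest peak of any library was 30.6 kb, with quartiles of 7.88 and 125 kb. The nearest peak was within 5 kb for 1205 closed genes, from 100 to 500 kb away for 1572 and beyond 500 kb for 355, or 5.30%. The farthest were Prr32, Dcaf12l1 and Dcaf12l2, all on the X chromosome, at 2345, 2249 and 1827 kb.

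Receptors for smell, pheromones and taste were closed almost without exception. Of 1543 chemosensory genes, 1499 had no promoter peak, or 97.1% against 30.8% of all coding genes. Since promoter peaks chose the members, all shares of families and lists are descriptions. All 15 trace amine receptors (Taar), all 35 bitter taste receptors (Tas2r) and all 7 formyl peptide receptors (Fpr) were closed, as were 121 of 122 vomeronasal type 2 receptors (Vmn2r), 197 of 209 type 1 receptors (Vmn1r) and 1108 of 1135 odorant receptors (Olfr). The nearest peak to a closed odorant receptor was a median of 147 kb away. Of the 27 odorant receptors with a promoter peak, 7 had it in all 8 libraries, among them Olfr12, Olfr56 and Olfr1033, and 6 in a single library. Mas-related receptors, which sensory neurons use for itch and pain, were closed in 16 of 20, and Mrgpre, Mrgprf and Mrgprg had a promoter peak in all 8 libraries.

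Reads that match several copies cannot be placed with certainty, which bears on recent families. The share of 50-base words within 500 bases of the most upstream TSS that occur once in the genome was taken as a measure of this. At least 90% of the words were unique for 73.2% of closed genes, against 94.8% of genes with a promoter peak in all 8 libraries. Odorant receptors with at least 90% unique words were closed in 920 of 933 cases, close to the whole family. None of the 22 alpha-defensins (Defa) and 4 of the 22 major urinary proteins (Mup) reached 90%, so peaks may have been missed there and their closed state is uncertain. The same limit applies to other families. It was reached by 97 of 209 Vmn1r, 55 of 122 Vmn2r, 6 of 15 Taar and 1 of 6 paired Ig-like receptor genes. Of the 97 Vmn1r and 55 Vmn2r genes, 91 and 54 were closed. Across all coding genes, 25.7% of those with at least 90% unique words were closed and 77.3% of those with under 50%.

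Barrier and secreted protein families were also mostly closed. Of 237 epithelial genes 84.4% had no promoter peak, including 48 of 57 keratin-associated proteins (Krtap) of hair, 31 of 36 cornified envelope proteins (Lce, Sprr), 40 of 42 beta-defensins and 24 of 27 kallikreins. Keratins themselves were closed in 35 of 53, and Krt10 and Krt14 had a promoter peak in all 8 libraries. The keratin share of 66.0% was 30.2% at a promoter distance of 5 kb. Among liver and secretion families 76.3% of 245 genes were closed, with 22 of 24 clade A serpins, 42 of 49 family 2 cytochromes P450 (Cyp2) and 19 of 21 sulfotransferases. The clade B serpins, protease inhibitors that mostly act inside cells, were lower at 12 of 26. Cyp2u1, Cyp2j6 and Cyp2w1 were among 6 Cyp2 genes with a promoter peak in all 8 libraries. In the placental families 23 of 25 prolactin relatives (Prl) and all 13 pregnancy-specific glycoproteins (Psg) were closed.

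**Figure D1:**
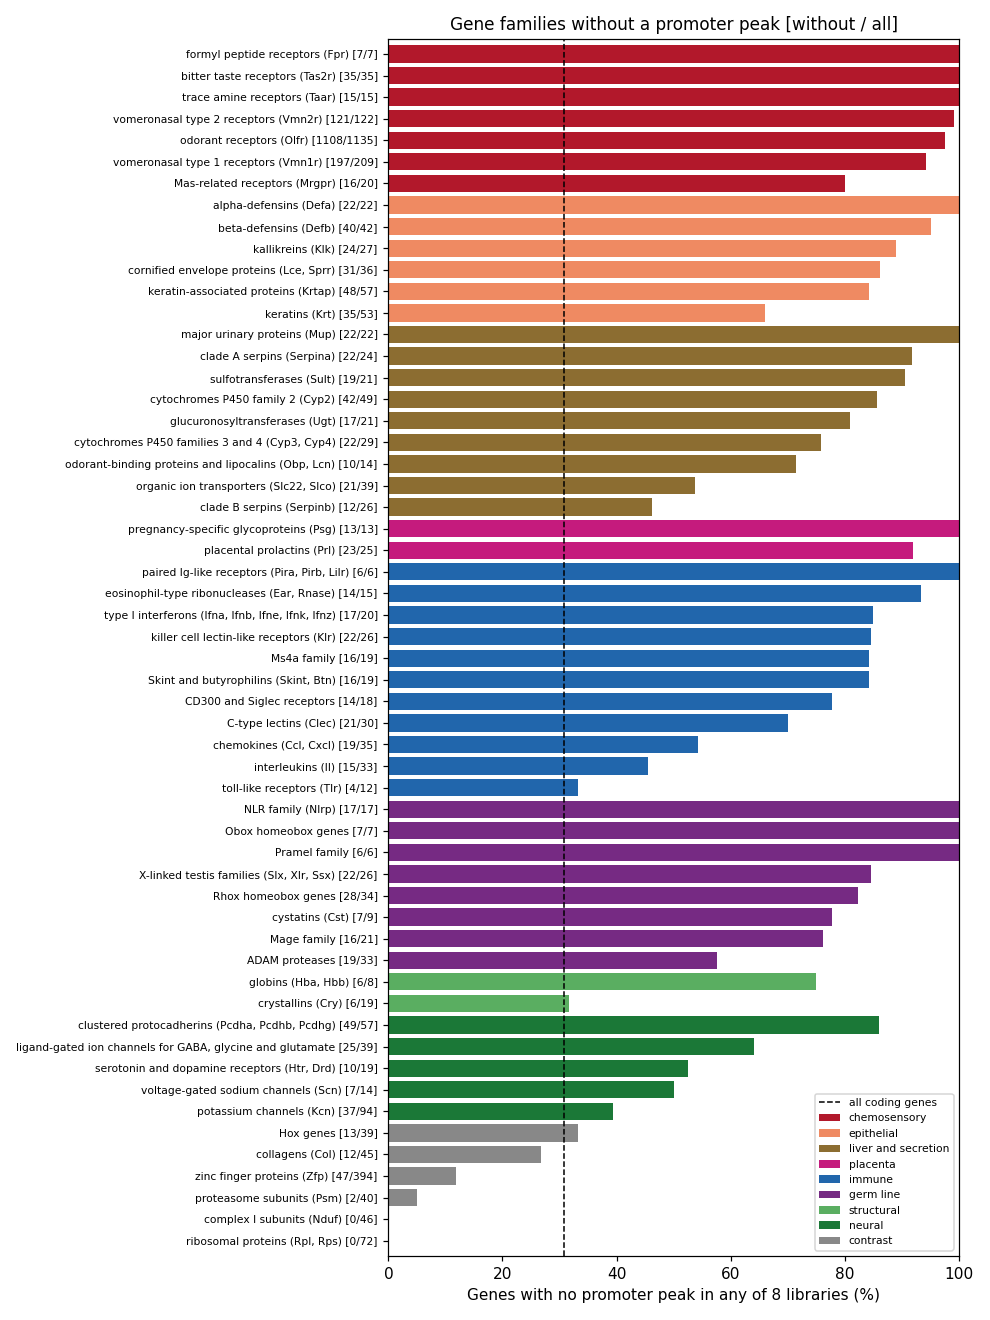
The bars give the percentage of genes in each name-defined family with no promoter peak in any of 8 libraries, coloured by group, with closed and all genes in brackets. The dashed line is the share of all coding genes, 30.8%, and the chemosensory families sit between 80.0% and 100%, while the ribosomal and complex I families sit at 0.

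Immune and germ line families varied as well. Immune genes were closed in 70.4% of 233, from all 6 paired Ig-like receptors (Pira, Pirb, Lilr) and 14 of 15 eosinophil-type ribonucleases to 19 of 35 chemokines, 15 of 33 interleukins and 4 of 12 toll-like receptors. The chemokine share of 54.3% was 28.6% at 5 kb. The type I interferons were closed in 17 of 20, and the name pattern had also taken the receptor genes Ifnar1 and Ifnar2, which had a promoter peak in all 8 libraries. In the germ line group 79.7% of 153 genes were closed. Among them were all 17 Nlrp genes, all 7 Obox genes and 28 of 34 Rhox genes, but 19 of 33 ADAM proteases. Only 2 Obox and 7 Rhox promoters had at least 90% unique words, so peaks may have been missed there. As a contrast, none of 72 ribosomal protein genes and none of 46 complex I genes were closed. The 2 closed proteasome genes of 40 under the name pattern were Psma8, the subunit of the testis, and Psmb11, the subunit of the thymic cortex.

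Neural families were split. Receptor channels for GABA, glycine and glutamate were closed in 25 of 39, voltage-gated sodium channels in 7 of 14 (28.6% at 5 kb), serotonin and dopamine receptors in 10 of 19 and potassium channels in 37 of 94. For the last 2 families the shares were 52.6% (Wilson 31.7% to 72.7%) and 39.4% (30.1% to 49.5%), beside 30.8% of all coding genes. The intervals cover counting error only, and no test was made, since promoter peaks chose the members. Closed members included the glutamate receptor genes Grin2a and Grin2b, with the nearest peak 6.99 and 41.1 kb away. Clustered protocadherins, which give neurons a surface identity, were closed in 49 of 57, while Pcdhga4, Pcdhgb7, Pcdhgc3, Pcdhgc4 and Pcdhgc5 had a promoter peak in all 8 libraries. Hox genes, which set position along the body axis, were closed in 13 of 39, close to the 30.8% of all coding genes. At a distance of 5 kb the Hox share was 17.9%, and with peaks of −log10 q of at least 5 it was 41.0%. The nearest peak to a closed Hox gene was a median of 5.80 kb away, from 1202 bp for Hoxb7 to 46687 bp for Hoxd1, and Hoxd1, Hoxd3 and Hoxd4 were closed side by side.

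Marker lists for 27 cell types held 358 annotated genes, of which 202, or 56.4%, were closed. The hepatocyte list was closed in 17 of 19, among them Alb, Afp, Ttr and the 3 fibrinogen chain genes, and the milk protein list in 6 of 7. At 5 kb the hepatocyte share of 89.5% was 57.9%. The male germ cell list was closed in 15 of 19, the pituitary list in 9 of 11, the placenta list in 8 of 10 and the T and NK cell list in 13 of 18. In the T cell receptor complex Cd3e, Cd3d and Cd3g were closed with both Cd8a and Cd8b1, whereas Cd28, Gzmb and Zap70 had a promoter peak in all 8 libraries. The striated muscle list was closed in 9 of 20. The regulators Myod1, Myog and Myf5 and the giant sarcomere gene Ttn were closed, and Tnni1, Tnnt2 and Ckm were open in all 8 libraries. The beta-like globins Hbb-bt, Hbb-bs, Hbb-bh1 and Hbb-y were closed, as was the embryonic alpha-like Hba-x of the globin family, and Hba-a1 and Hba-a2 had a promoter peak in 7 and 5 libraries. Only 15.6% and 8.33% of the words at the Hba-a1 and Hba-a2 promoters were unique, so those peaks may belong to either copy. Among globin promoters at least 90% unique, 4 of 4 were closed, against 6 of 8 in all.

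Lists for neural and glial cells ranged widely. The general neuron list was closed in 1 of 19, which became 10.5% with peaks of −log10 q of at least 5 and 0 at a distance of 5 kb, and the astrocyte list in 1 of 8, Gjb6. The dopaminergic list was closed in 5 of 17, or 29.4%, near the 30.8% of all coding genes. Those were Ddc, the vesicular monoamine transporter Slc18a2, the dopamine receptor Drd2, the potassium channel Kcnj6 and the midbrain factor Otx2, while Th, Foxa1, Foxa2, Nr4a2, Pitx3, En1, En2 and Ret had a promoter peak in all 8 libraries. In single-cell RNA-seq of this line the study found hardly any reads for Th, Foxa2, Nr4a2 and Pitx3 at either temperature. Its RT-qPCR did detect Th, Foxa2 and Nr4a2. A promoter peak is thus not a measure of expression. The nearest peak lay 6.70 kb from Slc18a2, 40.5 kb from Kcnj6 and 63984 bp from Drd2. The list for other amine and acetylcholine neurons was closed in 4 of 10, among them the acetylcholine genes Chat, Slc18a3 and Slc5a7. Most of that list was thus not closed, though only 1 member had a promoter peak in all 8 libraries. Neuropeptide precursors were closed in 12 of 22, including Npy, Tac1, Pdyn, Pomc and Cck, with Penk open in 7 libraries. Of the oligodendrocyte list 8 of 12 were closed, among them Mog, Mag, Mobp, Olig2 and Olig3, while Mbp and Cnp were open in all 8. At 5 kb the oligodendrocyte share of 66.7% was 33.3%. The fibroblast-like list was the reverse, with 11 of 13 open in all 8 libraries and only Thy1 closed, which became 0 at 5 kb, and none of 13 housekeeping genes was closed.

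**Figure D2:**
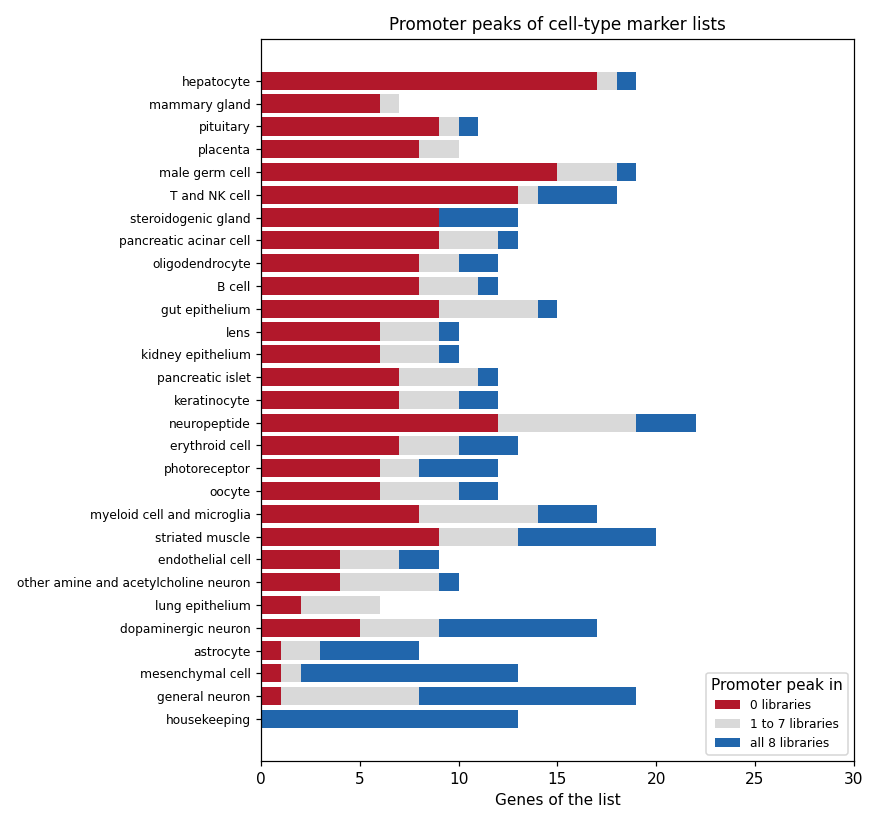
Each bar is a marker list, split into genes with a promoter peak in 0, in 1 to 7 and in all 8 libraries, and the x axis counts genes. The hepatocyte list at the top is closed in 17 of 19 genes and the general neuron list in 1 of 19.

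Many closed genes stood side by side along the chromosomes. In annotation order, 98 runs of at least 10 consecutive coding genes without a promoter peak held 2492 genes, 37.2% of the closed class, over 141 Mb. Of these, 64 runs with 1687 genes had a median of at least 90% unique words. A further 40.2% stood in runs of 2 to 9 and 22.6% stood alone between open genes. Odorant receptors led 28 of the 98 runs, with 1031 genes in 28.1 Mb. The longest run was on chromosome 2 from Olfr1034 to Olfr1274-ps (mm10 chr2:86045861-90403897), with 200 coding genes in 4.36 Mb, 194 of them odorant receptors. Only 4 regions were called in it over all libraries, and a library held 0 to 2 peaks there. On chromosome 7 a run from Olfr557 to Olfr649 (chr7:102695910-104195985) held 94 genes, 82 of them odorant receptors and 5 globins of the beta locus. It held 1 peak in each of the 8 libraries, the same region.

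Other long runs belonged to other families. The run from Igsf23 to Vmn1r183 on chromosome 7 (chr7:19937305-24063554) held 106 genes, 65 of them type 1 vomeronasal receptors, and its promoters had a median share of unique words of 0. The run held 4 peaks in each of 5 libraries and 3 in each of the other 3, and what repeated sequence did to the peak calls there was not tested. On chromosome 8 the run from Defb33 to Ccdc70 (chr8:20892669-21974041) held 43 genes with 22 alpha- and 10 beta-defensins, and its 1 region was called in 2 libraries at 39 °C. A run of 41 genes from Grik1 to Krtap11-1 on chromosome 16 (chr16:87895900-89571183) joined a glutamate receptor gene to 24 keratin-associated proteins and held 1 region. The run of 43 genes from Gm5244 to Olfr1505 on chromosome 19, with 42 odorant receptors, held no peak in any library, and 12 of the 98 runs were empty in this way.

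**Figure D3:**
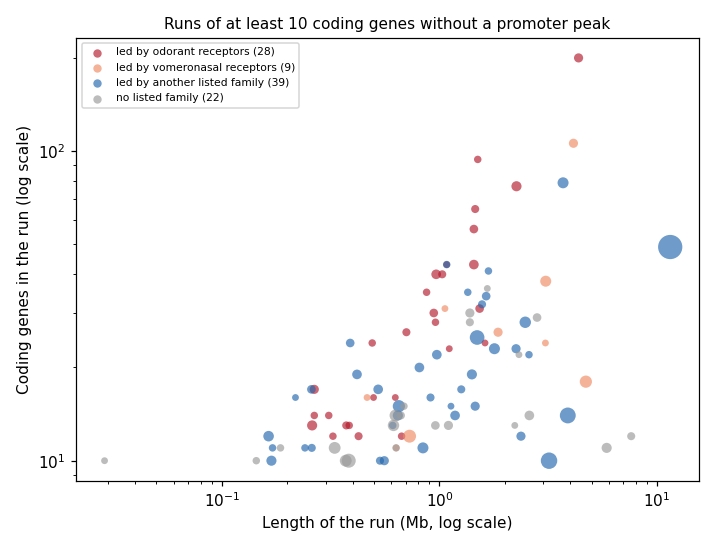
Each point is 1 of the 98 runs, with its length in Mb on the x axis and its number of coding genes on the y axis, both on log scales, coloured by the leading family and sized by the number of distal regions in it. The run of 200 genes led by odorant receptors stands highest, and the X chromosome run of 11.5 Mb farthest to the right carries the most regions, 58.

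The X chromosome had the largest closed share of any chromosome, 518 of 948 genes or 54.6%, followed by chromosome 14 with 44.7% and chromosome 7 with 43.2%. Without chemosensory genes these shares were 54.2%, 42.0% and 29.8%, and the lowest were 16.8% on chromosomes 11 and 19. Among genes with at least 90% unique words, 41.0% were closed on the X chromosome, 34.5% on chromosome 6, 34.3% on 7 and 28.8% on 14, so chromosome 14 no longer came next to X. The X run from Gm4907 to Gm14819 (chrX:23882553-35427093), with 49 genes in 11.5 Mb and a median of 5.21% unique words, held uneven numbers of peaks. The libraries held 20, 18, 23 and 23 at 37 °C and 17, 26, 22 and 53 at 39 °C, the last in replicate 4, whose whole list was the shortest.

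Closed promoters were poor in CpG, a feature that the rule did not use. The ratio of observed to expected CpG within 500 bases of the most upstream TSS had a median of 0.180 in closed genes, 0.325 in genes with a promoter peak in 1 to 7 libraries and 0.721 in genes with one in all 8. The GC content had medians of 45.1%, 53.9% and 58.7%. A TATAAA 20 to 40 bases before the TSS on the strand of the gene was present in 4.87% of closed genes, 1.02% of genes open in all 8 libraries and 2.44% of all coding genes. The closed share was 74.8% of the 4917 genes with a ratio under 0.2 and 49.4%, 23.6%, 6.55% and 2.13% in the higher classes, in steps of 0.2. Genes are not replicates, and no test was made of these differences.

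A minority of closed promoters were of the CpG-rich kind. Among the 6693, 376 had a CpG ratio of at least 0.6, a GC content of at least 50% and at least 90% unique words. Those of highest ratio, named after their values were seen, were Klf14, Bves, Cadps2, Nptx2 and Reln, with ratios of 1.11, 1.08, 1.05, 1.03 and 1.01. Klf14 is an imprinted transcription factor gene and Reln encodes the neuronal guidance protein reelin. The median length of these 376 genes was 45.5 kb. In 141 of them, or 40.3% of the 350 with enough distal body, the gene body held a distal peak.

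**Figure D4:**
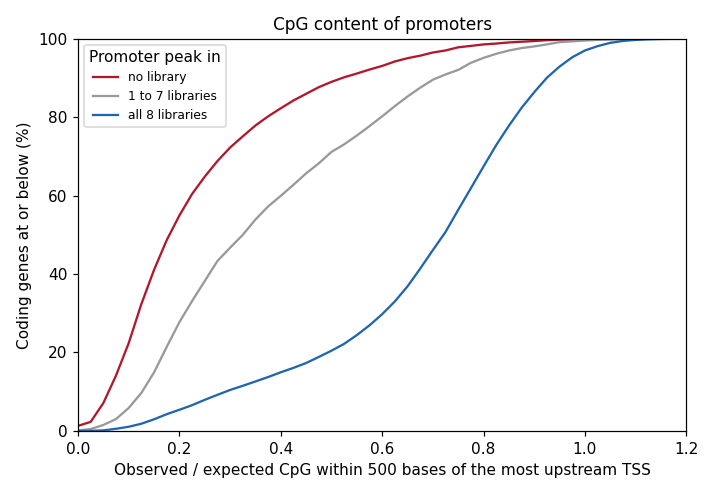
The curves give the cumulative percentage of coding genes (y axis) at or below each observed to expected CpG ratio (x axis) for genes with a promoter peak in no library, in 1 to 7 and in all 8. The curve of closed genes rises first, with a median of 0.180 against 0.721 for genes open in all 8 libraries.

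Open chromatin remained inside some closed genes, though it was sparse. A closed gene was examined when at least 1 kb of its body lay more than 1 kb from every TSS, as for 5551 of the 6693. Of these, 1308 or 23.6% (Wilson 95% interval 22.5% to 24.7%, which covers counting error only) held a distal peak in at least 1 library, and 663 or 11.9% in all 8. Regions outside every coding gene with a promoter peak were found in 1227, or 22.1%. Of the other coding genes 68.4% held a distal body peak in some library. Closed genes were also shorter, with a median of 8659 bp against 23987 bp for genes open in all 8 libraries, but the difference held within classes of length. At 5 to 20 kb a distal peak was found in 12.9% of closed and 54.5% of other genes, and above 300 kb in 72.3% and 95.6%.

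The density of distal peaks per Mb rests on positions away from every promoter, though the same 8 lists chose the closed genes. In the 232 Mb of closed gene bodies it was 9.56, 7.95, 7.59 and 10.6 per Mb at 37 °C and 7.43, 7.37, 7.81 and 5.55 at 39 °C in replicates 1 to 4. In the 702 Mb of other coding gene bodies it ranged from 24.9 to 46.3 and between coding genes from 13.1 to 23.1. The closed bodies were below the other bodies in 8 of 8 libraries, 4.22 to 4.78 times lower. The mean log2 ratio was −2.15 ± 0.0733 (SD, n = 8), with p = 0.00781 in the exact sign-exchange test, two-sided, the smallest that 8 libraries allow. All 8 lists helped to choose the genes and scored the same bodies. The p therefore shows only that the libraries were alike and is no independent support. Runs of at least 10 closed genes were sparser still, at 1.76 to 2.41 distal peaks per Mb.

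**Figure D5:**
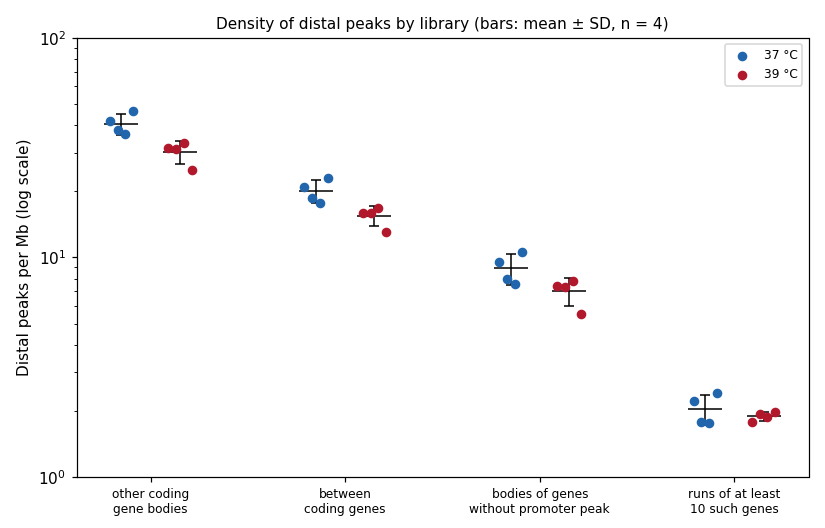
Distal peaks per Mb (y axis, log scale) are shown for each library in 4 kinds of territory, with blue points for 37 °C, red points for 39 °C and black bars for the mean ± SD of 4 libraries. The points lie at 24.9 to 46.3 in other coding gene bodies and at 1.76 to 2.41 in runs of closed genes.

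Between the temperatures the bodies of closed genes did not differ by a margin that passed the test. The share of closed genes with a distal body peak was 19.8%, 17.6%, 16.7% and 21.5% at 37 °C and 16.6%, 16.5%, 17.1% and 13.3% at 39 °C. The means were 18.9% ± 2.14 and 15.9% ± 1.76 (SD, n = 4 each), with overlapping groups and p = 0.0571 in the exact permutation test, two-sided, whose smallest p is 0.0286. The density was 8.93 ± 1.42 and 7.04 ± 1.01 per Mb (exact permutation p = 0.0571), and its ratio to other gene bodies was 0.219 ± 0.0113 and 0.233 ± 0.00677 (exact permutation p = 0.0857). In the runs it was 2.05 ± 0.321 and 1.89 ± 0.0894 per Mb (exact permutation p = 0.429). Adjusted over these 4 comparisons by Benjamini-Hochberg, the exact p were 0.114, 0.114, 0.114 and 0.429. In other coding gene bodies the density was 40.6 ± 4.49 and 30.2 ± 3.59 per Mb, with no overlap between the groups. With equal numbers of peaks in each list the first difference was 0.0116 percentage points (exact permutation p = 1.00). Without replicate 3 at 37 °C the first 2 differences had an exact permutation p of 0.0286.

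Body peaks were then compared gene by gene between the temperatures. Of the 1308 closed genes with a body peak, 41 or 3.13% held one in all 4 libraries at 37 °C and none at 39 °C, against 4.11% of all coding genes with a body peak. The opposite pattern was found in 4, or 0.306% against 0.378%. By number of peaks, 88 closed genes or 6.73% had more in each 37 °C library than in any 39 °C library, where the background was 12.1%, and 9 or 0.688% had more in each 39 °C library, where it was 0.600%. Fisher's exact test cannot go below p = 0.0286 with 4 libraries a group, so a gene could pass a Benjamini-Hochberg adjustment over the 19483 tested only if most genes had that p, and 0 passed, which says nothing of single genes. An unadjusted p under 0.05 was found for 486 genes, 45 of them closed. The longest genes with peaks only at 37 °C were the potassium channel gene Kcnb2, Fam19a4 and Sphkap. Kcnb2 held 1, 1, 1 and 2 peaks at 37 °C and 0 in each 39 °C library. The 4 of opposite pattern, Cnbd1, Sntg2, Sytl5 and Cd200r2, held 1 peak in each 39 °C library and 0 at 37 °C.

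The regions themselves were then counted. Of 2843 merged distal regions in closed bodies, 98 or 3.45% were called in all 4 libraries at 37 °C and none at 39 °C, against 5.26% of 74344 distal regions in all and 5.70% in other gene bodies. For the opposite pattern it was 19 or 0.668%, against 0.343% and 0.253%. All 8 libraries called 1045 or 36.8%, near the background of 38.5%. Among all 2843 regions the summit lay in an annotated exon in 10.7% of cases, against 9.56% in other gene bodies. Their median width was 709 bp, against 847 bp in other gene bodies. TGANTCA was present within 100 bases of the summit in 35.1% of the regions in closed bodies (Wilson 33.4% to 36.9%), 30.3% in other gene bodies and 32.0% of all distal regions, GGAATG in 19.2%, 17.9% and 18.5%, and AACCACA in 12.1%, 10.7% and 11.1%. By −log10 q the peaks in closed bodies ranked at a median of 55.0% to 56.9% of the way down the 37 °C lists from the strongest peak, and those in other bodies at 58.5% to 59.6%. At 39 °C they ranked at 61.1% to 62.3% in closed and 59.4% to 60.3% in other bodies. The lists at 37 °C were the longer ones, and with each list kept to its 54845 strongest peaks, a check chosen after seeing the data, the order was the same at both temperatures. Peaks in closed bodies then ranked at 62.3% to 65.5% and those in other bodies at 59.7% to 60.3%, and the median fold enrichment was lower in closed than in other bodies in all 8 libraries.

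The closed genes with the most distal regions were long, from 219 to 1526 kb. Gm42906 and Iqschfp, with 36 and 20 regions, overlap the open genes Stard13 and Schip1, and 18 and 3 of their regions lay outside those. Kcnip1, which encodes a partner of potassium channels, held 22 regions in 364 kb, with no promoter peak and the nearest peak 6.15 kb from a TSS. It had 18, 17, 15 and 21 distal peaks at 37 °C and 16, 18, 17 and 12 at 39 °C, so the groups overlapped. Akap6, a muscle and brain scaffold for protein kinase A, held 20 regions, with 18, 15, 17 and 18 peaks at 37 °C and 16, 16, 15 and 14 at 39 °C. The neuronal splicing factor gene Rbfox1 held 19 regions in 1526 kb, with 16, 14, 14 and 18 peaks at 37 °C and 16, 17, 14 and 11 at 39 °C. The groups overlapped for both genes, and replicate 4 at 39 °C was lowest for both. Myo16 held 18 regions, Pebp4 16, Slc14a2 15 and Adamtsl1 14. A second gene model named Arhgap26, which overlaps an open model of the same name, held 14, of which 7 lay outside open genes.

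Other long closed genes were empty. The 10 longest with no peak in the body in any library were Lrp1b, Dab1, Auts2, Ctnna2, Dcc, Cntn4, Sdk1, Thsd7b, Dgkb and Lrrtm4, from 2058 kb down to 791 kb. Several are known for roles in axon guidance or synaptic adhesion, such as the netrin receptor gene Dcc and the contactin gene Cntn4. The nearest peak to a TSS of Dcc was 1097 kb away and that of Lrp1b 779 kb away. Promoters of Auts2 and Sdk1 both had a CpG ratio of 0.981.

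Among the marker lists, body peaks remained in specific genes. Trp63, the regulator of the epidermis, held 12 distal regions, with 9, 9, 6 and 10 peaks at 37 °C and 7 in each of the 4 libraries at 39 °C. Cx3cr1, a chemokine receptor of microglia, held 10, of which 7 lay outside coding genes with a promoter peak. In the dopaminergic list Ddc held 5 regions, with 4, 4, 4 and 5 peaks at 37 °C and 2, 2, 3 and 2 at 39 °C, so each 37 °C library was above each 39 °C library, a pattern found in 12.1% of coding genes with a body peak. Slc18a2 held 1, 2, 1 and 1 peaks at 37 °C and 1 in each 39 °C library, and Drd2 held 1 peak in each of the 8. Kcnj6 held 1, 0, 1 and 2 at 37 °C and 1, 0, 0 and 0 at 39 °C, and Otx2 held none. The hepatocyte list was nearly bare, with a body peak in 1 of its 16 closed genes with enough body, Ahsg, called in 1 library at 37 °C and 3 at 39 °C. By family group, a distal body peak was found in 2.09% of closed chemosensory genes with enough body and in 41.6% of closed neural genes, beside 23.6% of all closed genes. These groups were not matched on length, with a median gene of 7.07 kb and 76.3 kb. From 5 to 20 kb the shares were 18 of 908 chemosensory genes, or 1.98%, and 6 of 24 neural genes, and from 1 to 5 kb neither group held a body peak.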

How the data were processed

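Chromatin accessibility was measured by Omni-ATAC-seq in 8 libraries, 4 at each temperature. The authors aligned read pairs to mm10 with Bowtie2 2.4.1, sorted and deduplicated them with SAMtools 1.15.1 and Picard 2.26.11 and called peaks per library with MACS3 3.0.0a7, without a control, at a q-value of 0.05. The study's methods also describe removal of blacklisted regions with bedtools 2.30.0, and whether the lists precede that step is not given in the sources used here. The deposited lists give each peak's position, its pileup signal, its −log10 p and q and its fold enrichment, a ratio to a genome-wide background. They hold no counts per region, so genes were compared by which peaks were called. Depth, 49.8 to 169 M fragments, was read from the deposited headers.

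TSS were those of all transcripts in GENCODE M21. Overlapping peaks from any library were joined into regions. Peaks past 1 kb from every TSS were distal and were assigned to gene bodies by summit. Bodies shared by closed and other genes were left out of densities. No peak ran past the end of its chromosome in GRCm38.p6, from which sequences were read. Families were defined by name patterns and lineages by marker lists, and 358 of 360 listed tissue markers were found. Members, families and lists were chosen with earlier results of these data known. The genes named are members of those lists, the 10 closed genes with most distal regions, the 10 longest without a body peak, those with a body peak in all 4 libraries of a temperature and none of the other, the ends of the longest runs and the genes nearest the limit, with exceptions stated. Promoters printed are the first closed gene of a list with at least 90% unique words, with chromosome 18, also left out of the printed regions, and overlaps with exons excluded. Some items are not reported here.

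Values per library were compared by exact permutation tests, two-sided, with Python 3.11.15 and scipy 1.17.1. The scripts were tested on simulated lists. Alternatives were a −log10 q of at least 5, equal numbers of peaks, distances of 500 bp and 5 kb, summits, 2 libraries, coding transcripts, unique promoters, each library left out and the replicate number as a block.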

Additional observations from a re-analysis of the deposited data

Results flagged for a closer look

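Each value was compared with the other 3 libraries of its temperature, in 50 sets of 4 values, and the lowest or highest stood apart in 6. Chance gives about 1 such set in 20 for continuous values. In replicate 4 at 39 °C the share of closed genes with a distal body peak was 13.3%, against 16.5% to 17.1% in the other libraries, and the density relative to other gene bodies was 0.223, against 0.236 to 0.237. That library had the shortest peak list, 54845 peaks. The other 4 were counts in which 3 libraries were tied and 1 differed by 1 peak, to which that rate does not apply. Replicate 3 at 39 °C held 1 peak in the run from Olfr1034 to Olfr1274-ps, where the others held 2, and replicate 1 at 39 °C held 4 in the run from Igsf23 to Vmn1r183, where the others held 3. Replicate 4 at 37 °C held 9 in the run from Dydc2 to Gm8267, where the others held 8, and replicate 2 at 39 °C held 0 in the run from Olfr764-ps1 to Vmn2r87, where the others held 1.

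The median rank of peaks in closed bodies, as a percentage of the list from the strongest peak, minus that in other gene bodies was −3.20 on average at 37 °C, from −3.70 to −2.50, and 1.57 at 39 °C, from 1.10 to 2.00. All 4 libraries of each temperature lay on the same side of 0, and the difference was not tested. The peak lists were longer at 37 °C, and with each list kept to its 54845 strongest peaks the values were 4.12 on average at 37 °C, from 3.60 to 4.64, and 4.30 at 39 °C, from 1.97 to 5.18, so the opposite signs were not seen with lists of equal length.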

How the results depend on the processing

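The number of closed genes was 6693 and ranged from 4899 to 7747 over the alternatives, and the runs of at least 10 genes numbered 85 to 135 against 98, and 64 had a median of at least 90% unique words. The share of closed genes with a distal body peak, 23.6%, was 20.5% with equal numbers of peaks, 22.2% at 5 kb, 24.9% at 500 bp, 26.3% by summits, 22.4% with a peak in at least 2 libraries, 25.6% with coding transcripts and 27.9% with unique promoters. The log2 density ratio of closed to other bodies stayed between −2.70 and −1.87.

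With equal numbers of peaks the differences of 39 °C minus 37 °C turned in direction, to 0.0116 percentage points for the share, 0.0140 per Mb for the density, −0.00748 for the ratio and 0.213 per Mb in runs. The run difference also turned with unique promoters, to 0.294, and without the 37 °C libraries over 100 M fragments, to 0.0954, an alternative chosen after seeing the data. In 2 more chosen then it stayed negative, at −0.269 with only the runs of a median of at least 90% unique words and −0.241 without the longest run on chromosome X. The median rank of distal peaks in closed minus other bodies at 37 °C turned from −3.20 to 4.12 percentage points with equal numbers of peaks. The cause was not tested. Leaving out each library in turn gave 6699 to 6827 closed genes, 22.9% to 23.6% for the share and 96 to 99 runs. The differences were then −3.83 to −2.15 percentage points, −2.39 to −1.39 per Mb, 0.00963 to 0.0173 for the ratio and −0.247 to −0.0491 per Mb in runs, and the log2 density ratio was −2.15 to −2.12. Without replicate 3 at 37 °C the first 2 had an exact permutation p of 0.0286.

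Same-numbered libraries correlated at 0.0492, 0.00539, −0.00960 and −0.0195, so the numbers were not taken to pair the samples. With the replicate number as a block the differences were −3.03, −1.89, 0.0136 and −0.153, with exact permutation p of 0.250, 0.250, 0.250 and 0.500.

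At 5 kb the closed share of 11 of 56 families and 9 of 29 marker lists moved outside its 95% Wilson interval, and no share rose. By over 1.5 times it was lower in keratins, chemokines, sodium channels, Hox and proteasome genes and in 10 marker lists, among them myeloid (47.1% to 23.5%), pancreatic acinar (69.2% to 38.5%) and steroidogenic (69.2% to 38.5%). With unique promoters it moved in 8 of 55 families, most in the X-linked testis families, from 84.6% to 20.0%, and in no marker list, though the lens list was 33.3% in place of 60.0%. With a −log10 q of at least 5 it moved in no family and 1 marker list, and by over 1.5 times in the lung epithelium list, 50.0% in place of 33.3%, and the general neuron list, 10.5% in place of 5.26%.

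Without read counts, weak promoters under the caller's threshold cannot be told from closed ones.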
